A study of Mus musculus with 18 samples.

Results

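The immediate early genes are a small set of stimulus-responsive genes, and 10 of them were followed here: Fos, Fosb, Jun, Junb, Atf3, Egr1, Nr4a1, Ier2, Ier3 and Zfp36. They were chosen by name, out of 17711 genes with a named probe on the array, and every probe annotated to them was looked up; the values are those of the brightest probe past the detection filter. Of the 10 genes, 9 had a probe that passed the detection filter; the Nr4a1 probe was detected on 0 of 18 arrays and was not tested, and neither was a second Junb probe, also detected on 0 of 18. The cells came from MacGreen mice on C57Bl/6J, 10 to 16 weeks old, whose EGFP is under the Csf1r promoter, so brightness marks the activity of that promoter in myeloid cells and not a single cell type. Sterile objects were placed in the peritoneal cavity, and cells bright for EGFP were sorted, pooled and measured on bead arrays. There were 9 groups of 2 arrays. Capsule cells, freed with collagenase from the tissue around free-floating objects in other mice than the lavage, were taken at day 7, 14, 21 and 28. Lavage cells, washed from the cavity with no digestion, were taken at day 0, 2, 4, 7 and 14, where day 0 mice carried no implant. Every capsule group was digested and no lavage group was, so place and digestion cannot be told apart in any comparison of capsule with lavage. The labels do not tie the 2 arrays of a group to separate animals, and the p-values then measure only the spread between arrays, which may be technical.

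Immediate early genes are transcribed within minutes of a stimulus and need no new protein, because the factors that switch them on, such as SRF with its ternary complex partners and CREB, are already in the cell and respond to MAP kinase and calcium signals. Their transcripts are short-lived, so a high level reflects recent transcription. Fos and Jun family proteins pair through leucine zippers to form AP-1, which drives many inflammatory and tissue remodelling genes in macrophages, and these genes are also known to be induced while tissue is being dissociated with enzymes. The label "transcription factors" fits most members but not all: Zfp36 encodes tristetraprolin, which binds AU-rich elements and speeds mRNA decay, and Ier3 encodes a small regulator of cell survival.

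Promoter sequences were available from RefSeq on GRCm38.p6 for 8 of the 10 members (Egr1 and Ier2 have no entry in the table). Windows of 300 bases, 250 before and 50 after the annotated start, were searched on both strands for the core TGACG of the cyclic AMP response element, its full form TGACGTCA (which contains the core), the AP-1 site TGANTCA, the EGR site GCGGGGGCG and the CArG box bound by SRF, and on the gene strand for TATAAA. The 250 bases before the start are shown for 4 members that differ in what they hold, each read 5′ to 3′ on the gene strand, with matches in capitals. They are Fos (chr12:85473640-85473889, + strand), Fosb (chr7:19310046-19310295, - strand), Atf3 (chr1:191183334-191183583, - strand) and Zfp36 (chr7:28379229-28379478, - strand).
Fos: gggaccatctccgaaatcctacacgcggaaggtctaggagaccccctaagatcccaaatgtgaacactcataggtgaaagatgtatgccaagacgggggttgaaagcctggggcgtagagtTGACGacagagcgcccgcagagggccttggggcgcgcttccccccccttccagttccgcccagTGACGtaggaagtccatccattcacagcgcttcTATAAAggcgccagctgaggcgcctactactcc
Fosb: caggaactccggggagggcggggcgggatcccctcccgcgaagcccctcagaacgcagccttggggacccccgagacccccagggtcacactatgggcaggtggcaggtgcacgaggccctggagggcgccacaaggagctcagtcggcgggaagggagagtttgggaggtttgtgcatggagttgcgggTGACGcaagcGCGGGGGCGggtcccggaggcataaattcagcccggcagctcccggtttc
Atf3: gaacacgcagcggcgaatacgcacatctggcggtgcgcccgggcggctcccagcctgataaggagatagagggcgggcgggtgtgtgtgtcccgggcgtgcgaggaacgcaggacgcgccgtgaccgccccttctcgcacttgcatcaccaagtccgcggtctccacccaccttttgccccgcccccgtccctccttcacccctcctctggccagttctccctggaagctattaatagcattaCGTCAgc
Zfp36: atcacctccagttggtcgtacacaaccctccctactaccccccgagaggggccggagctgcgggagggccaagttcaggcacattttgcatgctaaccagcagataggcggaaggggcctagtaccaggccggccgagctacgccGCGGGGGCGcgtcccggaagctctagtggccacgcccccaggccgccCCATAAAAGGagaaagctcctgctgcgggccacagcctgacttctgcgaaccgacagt
In Fos the capitals mark TGACG at -129 and -66 and TATAAA at -33 from the start. In Fosb they mark TGACG at -60 and the EGR site at -50, in Atf3 the core on the opposite strand (CGTCA) at -7, and in Zfp36 the EGR site at -105 and the CArG box at -58. The core TGACG was in 5 of 8 member promoters (Fos, Fosb, Junb, Atf3 and Nr4a1), against 20.8% of the 32851 mouse promoters searched. The EGR site was in 3 of 8 (Fosb, Zfp36 and Nr4a1), against 2.91% of all promoters. The CArG box was in 1 of 8 (Zfp36), against 1.63%, and TATAAA in 2 of 8 (Fos and Junb), against 8.32%. The Junb TATAAA begins at position 1, within the 50 bases after the annotated start and not before it. The full TGACGTCA and the AP-1 site were in 0 of 8, against 1.79% and 7.81%. These matches describe letters in the window and are not evidence of binding.

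Levels below are log2 intensities after background correction and quantile normalisation, and changes are differences between these levels, fitted as group means in limma, with their standard errors (SE). A gene is said to have risen or fallen only where its Benjamini-Hochberg adjusted p was under 0.05 among 10806 genes. All lavage groups and capsule day 7 were run on slides 1 and 2, where arrays averaged 585 to 1053 in raw intensity, and the later capsule groups on slides 3 and 4, where they averaged 455 to 528. Of 9 myeloid markers 7 were measured, and 6 of them were detected in all 9 groups, among them Lyz2 (15.44 to 15.85) and Adgre1, the F4/80 antigen (14.29 to 15.23). Fcgr1 varied from 11.18 at lavage day 2 to 5.38 at lavage day 14, where it was not detected, and Csf1r itself had no probe passing the filter. Of the 7, 2 rose and 2 fell at lavage day 2 against day 0, where 13.3% of all genes rose and 11.7% fell. At lavage day 14, 2 fell. In that comparison with day 0, 2144 of 10806 genes passed in either direction, and 52.1% of those 2144 rose. Because these are bulk samples, fewer cells of a type and less RNA per cell cannot be told apart.

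**Figure D1:**
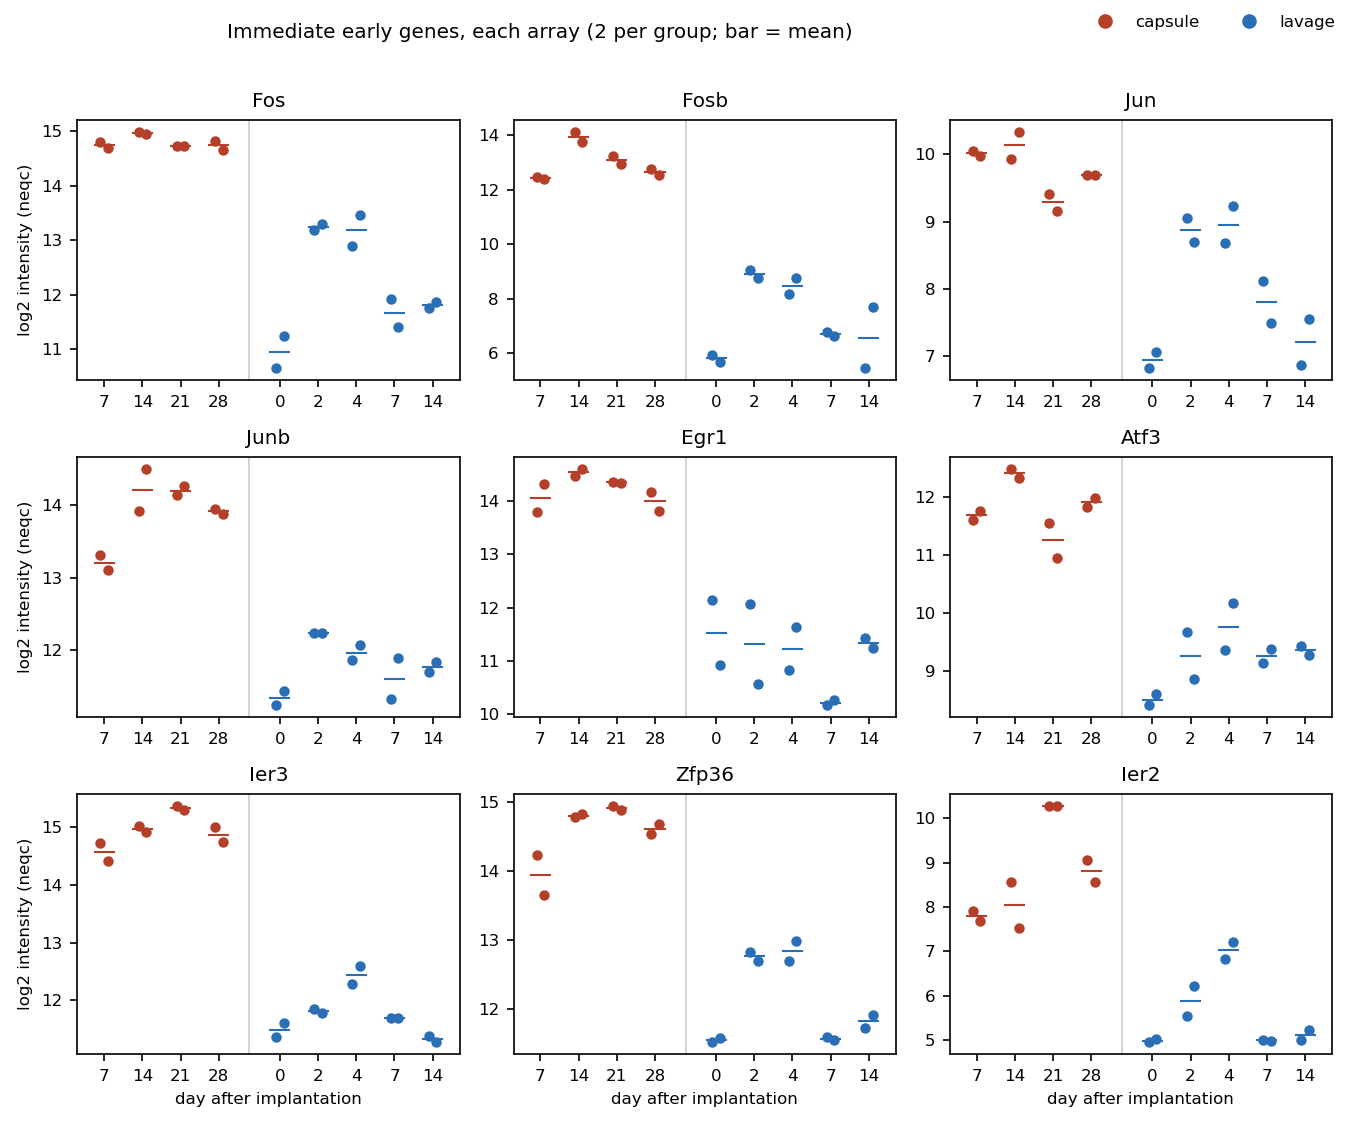
Log2 intensity (y axis) of the 9 measured members on each of the 18 arrays, by day (x axis), with capsule groups in red on the left and lavage groups in blue on the right; the 2 points of a group are its arrays and the bar is their mean. For 8 of the 9 members every capsule point lies above every lavage point, the exception being Jun, whose lowest capsule value is 9.17 and highest lavage value 9.24.

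All 9 measured members rose in capsule cells at day 7 against lavage cells of the same day, where 11.6% of all genes tested rose and 12.5% fell. The members' median change was 2.81, against -0.02 over all genes. Fosb, an AP-1 subunit that pairs with Jun proteins, had the largest change. It read 12.47 and 12.37 in capsule cells and 6.79 and 6.64 in lavage cells, a rise of 5.70 (SE 0.47, adjusted p = 1.26e-06). In the raw files this was an intensity of 5677 and 5700 in capsule cells, against 230.4 and 239.8 in lavage cells. Fos, the founding member of the family, was already bright in lavage cells and rose by 3.08 (SE 0.22, adjusted p = 2.77e-07). Its levels were 14.80 and 14.70 in capsule cells, against 11.92 and 11.42 in lavage cells. The Jun partners had smaller changes. Jun rose by 2.21 (SE 0.26, adjusted p = 4.05e-05), with 10.05 and 9.98 in capsule cells against 8.12 and 7.49 in lavage cells. Junb, which in many settings restrains Jun, rose by 1.61 (SE 0.21, adjusted p = 6.76e-05), with 13.31 and 13.10 in capsule cells against 11.31 and 11.88 in lavage cells. No arrays of the 2 groups overlapped for any of the 9 members, as was so for 61.5% of all genes.

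Egr1, a zinc finger factor and classic SRF target, rose by 3.85 in the same comparison (SE 0.43, adjusted p = 2.35e-05), with 13.80 and 14.33 in capsule cells against 10.16 and 10.26 in lavage cells. Atf3, a stress-induced bZIP factor that can limit cytokine transcription, rose by 2.43 (SE 0.28, adjusted p = 3.02e-05), with 11.61 and 11.76 in capsule cells against 9.14 and 9.38 in lavage cells. Both genes were therefore well separated between the groups. Ier3 had the smallest SE of the set and rose by 2.87 (SE 0.16, adjusted p = 2.73e-08); its levels were 14.72 and 14.41 in capsule cells against 11.69 and 11.70 in lavage cells. Zfp36, whose protein shortens the life of Tnf and other cytokine mRNAs, rose by 2.36 (SE 0.17, adjusted p = 4.01e-07), with 14.24 and 13.65 in capsule cells against 11.60 and 11.56 in lavage cells. Ier2, a small nuclear protein of less settled role, was detected on both capsule arrays (7.92 and 7.70) and on no lavage day 7 array (5.01 and 4.99). A probe that neither array of a group detected has only a bound there, computed against the higher of the probe's own value and the lowest detected signal on each array; for Ier2 capsule cells were at least 4.33-fold higher (adjusted p = 1.12e-05). Both groups shared slides 1 and 2, and the 9 changes were 1.93 to 5.68 within slide 1 and 1.23 to 5.73 within slide 2.

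**Figure D2:**
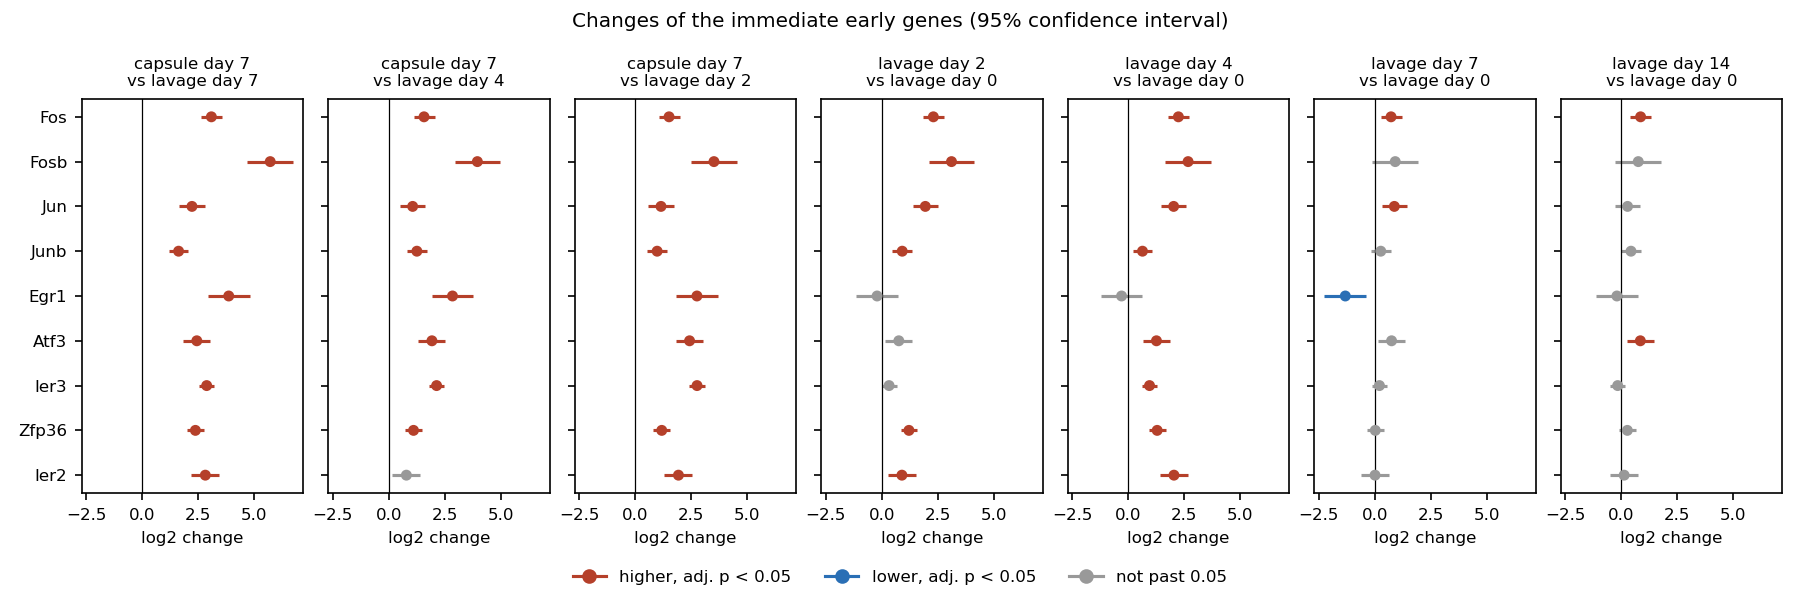
Log2 change (x axis) of the 9 measured members with its 95% confidence interval in 7 comparisons, 3 of capsule day 7 with lavage and 4 of later lavage days with day 0; red points are higher and blue points lower at an adjusted p under 0.05, and grey points did not pass. All points of the capsule panels lie right of 0, and Egr1 lies left of 0 in all 4 lavage panels, blue at day 7.

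At day 14 the 9 members were again all higher in capsule cells than in lavage cells, where 16.8% of all genes rose and 18.4% fell, and again no arrays overlapped for the 9, as for 64.4% of all genes. The median change was 3.05, against -0.02 over all genes. Fosb read 14.13 and 13.74 in capsule cells, against 5.45 and 7.68 in lavage cells, a rise of 7.37 (SE 0.47, adjusted p = 8.71e-08). Only the brighter lavage array detected Fosb, and the 2 lavage values differed widely (SD 1.58, n = 2). Ier3 rose by 3.64 (SE 0.16, adjusted p = 1.77e-09), with 15.02 and 14.92 in capsule cells against 11.38 and 11.28 in lavage cells. Egr1 rose by 3.21 and Fos by 3.16, and Atf3, Zfp36, Jun and Junb by 3.05, 2.97, 2.93 and 2.46, each with an SE of 0.17 to 0.43. Ier2 was at least 4.73-fold higher in capsule cells. Capsule day 14 lay on a slide of its own, so slide and group cannot be told apart here.

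The day 7 to day 14 step of the capsule-minus-lavage difference was tested gene by gene. It passed for 1 of 9 members, Ier3, in the positive direction, as it did for 4.66% of all genes. For Ier3 the difference was larger at day 14 by 0.77 (SE 0.22, adjusted p = 0.0377). A second Ier3 probe, which was added after the data were seen, gave 1.75 in limma with all kept probes (SE 0.42, adjusted p = 0.0175). It was not detected on either lavage day 14 array, so the size of its value depends on the background there. The call of the main probe was lost when only the arrays compared were fitted (adjusted p = 0.0873) and when any array but the first replicate of capsule day 7 was left out (adjusted p 0.0658 to 0.146). For the other 8 members the difference between days was -0.65 to 1.67 and did not pass.

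Lavage cells were never digested, and in them most members were high at day 2 and day 4 after implantation. At day 2, 6 of 9 rose over day 0, when 13.3% of all genes rose and 11.7% fell. Fos read 13.19 and 13.30 at day 2 against 10.65 and 11.24 at day 0, a rise of 2.30 (SE 0.22, adjusted p = 3.75e-06). Fosb rose by 3.11 (SE 0.47, adjusted p = 0.00025), with 9.06 and 8.77 at day 2 against 5.92 and 5.69 at day 0, and Jun by 1.94 (SE 0.26, adjusted p = 1e-04), with 9.05 and 8.69 against 6.82 and 7.05. The AP-1 subunits were thus led by Fosb here as in the capsule. Zfp36 rose by 1.21 (SE 0.17, adjusted p = 0.000161) and Junb by 0.91 (SE 0.21, adjusted p = 0.00484). Ier2 was detected on 1 of 2 arrays at day 2 and 0 of 2 at day 0, with a bound of at least 1.17-fold higher and an adjusted p of 0.037 that became 0.137 with a background offset of 50 and 0.281 without the second day 2 array. Atf3 (0.76, adjusted p = 0.0659), Ier3 (0.32, adjusted p = 0.163) and Egr1 (-0.21, adjusted p = 0.792) did not pass. The second Ier3 probe gave 0.90 and did pass (adjusted p = 0.0437). The 9 changes were -0.07 to 3.14 within slide 1 and -0.35 to 3.08 within slide 2, Egr1 being the lowest in both.

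At day 4, 8 of 9 members had risen over day 0, when 15.4% of all genes rose and 12.6% fell, and Egr1 was the exception. Fosb (2.67, adjusted p = 0.000889), Fos (2.23, adjusted p = 7.68e-06) and Jun (2.02, adjusted p = 8.74e-05) led again. Zfp36 rose by 1.29, Atf3 by 1.25, Ier3 by 0.94 and Junb by 0.63, and Ier2, detected on both day 4 arrays at 6.84 and 7.22, was at least 2.59-fold higher (adjusted p = 0.000182). Junb (adjusted p = 0.0344) no longer passed when any of the 4 arrays was left out (0.0678 to 0.182), and Atf3 not without the second day 4 array (adjusted p = 0.0665). Egr1 values were 10.83 and 11.63 at day 4 against 12.14 and 10.92 at day 0, and the change was -1.31 within slide 1 and 0.70 within slide 2, so that the slides differed in direction. Over the other 8 members the change was positive within both slides, from 0.63 to 3.08.

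Fewer members passed the test against day 0 at lavage day 7 and day 14. At day 7, 2 members had risen over day 0 (15.1% of all genes) and 1 had fallen (13.5%). These numbers are near the shares over all genes and are no result about the members as a set. Fosb (0.91, adjusted p = 0.178) and Atf3 (0.75, adjusted p = 0.0633) did not pass. Fos rose by 0.72 (adjusted p = 0.0232) and Jun by 0.87 (adjusted p = 0.0246), while Egr1 fell to 10.16 and 10.26 at day 7, against 12.14 and 10.92 at day 0, which is a difference of -1.32 (SE 0.43, adjusted p = 0.0356). In a fit of the 12 arrays of slides 1 and 2, with no block, Fos (adjusted p = 0.0468) and Jun (adjusted p = 0.0396) kept their calls and Egr1 did not (adjusted p = 0.0639); with the replicate number, which marks the slide, as a block in that fit, none of the 3 passed (adjusted p 0.0514 to 0.072). Within slides 1 and 2 the changes were 1.27 and 0.18 for Fos, 1.30 and 0.44 for Jun, and -1.97 and -0.66 for Egr1. Without the first day 0 array the differences were 0.43 for Fos, 0.75 for Jun and -0.71 for Egr1, and without the first day 7 array they were 0.47, 0.56 and -1.27, none past the threshold. At day 14, 2 members were above day 0, where 10.3% of all genes rose: Fos by 0.86 (adjusted p = 0.0127) and Atf3 by 0.85 (adjusted p = 0.0488). In the fit of the 12 arrays Atf3 did not pass either without the replicate block (adjusted p = 0.0605) or with it (adjusted p = 0.0758), and without the first day 0 array or the second day 14 array neither gene passed. Atf3 lost its call when any of the 4 arrays was left out (adjusted p 0.0997 to 0.201). The Fosb change at day 14 (0.76, adjusted p = 0.293) was -0.47 within slide 1 and 1.98 within slide 2, and without the dim day 14 array it was 1.87 (adjusted p = 0.000314).

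At lavage day 14 against day 4, 6 of 9 members fell, where 13.8% of all genes fell and the members' median was -1.11. They were Fos (-1.37, adjusted p = 0.000483), Fosb (-1.91, adjusted p = 0.00959), Jun (-1.74, adjusted p = 0.000348), Ier3 (-1.11, adjusted p = 0.000202), Zfp36 (-1.02, adjusted p = 0.00085) and Ier2 (at least 2.33-fold lower, adjusted p = 0.000357). Fosb was -0.79 without the dim day 14 array (adjusted p = 0.0528) and -1.61 without the second day 4 array (adjusted p = 0.0826). Junb (-0.20), Atf3 (-0.41) and Egr1 (0.11) did not pass. The Egr1 group mean was highest at day 0 (11.53) among the lavage groups.

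Most members were still higher in capsule cells at day 7 than in undigested lavage cells at day 2 and day 4. Against lavage day 2, 9 of 9 members were higher in capsule day 7 cells (14.7% of all genes rose), and against lavage day 4, 8 of 9 (12.8%). Fosb was 3.51 higher than at lavage day 2 (adjusted p = 7.07e-05) and 3.95 higher than at lavage day 4 (adjusted p = 3.49e-05). Egr1, which did not rise in the lavage, was 2.75 and 2.84 higher (adjusted p = 0.000269 and 0.000274). Ier3 was 2.75 and 2.13 higher. Fos differed less, at 1.50 (adjusted p = 0.000131) and 1.57 (adjusted p = 0.000121), and Jun, Junb and Zfp36 by 0.97 to 1.25 in both comparisons. Atf3 was 2.42 and 1.92 higher. Ier2 was 1.92 higher than at lavage day 2, and 0.78 higher than at lavage day 4 without passing (adjusted p = 0.0619), though in the fit of the 12 arrays of slides 1 and 2 it did pass, without the replicate block (adjusted p = 0.0217) and with it (adjusted p = 0.0193). The Jun difference from lavage day 4 was lost when the first lavage day 4 array was left out (adjusted p = 0.106). Within slide 1 the differences from lavage day 4 were 1.08 to 4.30 and within slide 2 they were 0.48 to 3.60. Capsule and lavage day 7 changes share their samples with these comparisons, so the values stand side by side and are not independent.

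Within the capsule the members stayed high to day 28. From day 7 to day 14, 3 of 9 rose (11.8% of all genes): Fosb by 1.51 (SE 0.47, adjusted p = 0.033), Junb by 1.01 (SE 0.21, adjusted p = 0.00285) and Zfp36 by 0.86 (SE 0.17, adjusted p = 0.00291). Fosb lost its call with the authors' log2 values (adjusted p = 0.156), with no detection filter (adjusted p = 0.0589), and when any of the 4 arrays was left out (adjusted p 0.079 to 0.142). Zfp36 lost its call with only the 4 compared arrays fitted (adjusted p = 0.0544). Between day 28 and day 7, Junb (0.71, adjusted p = 0.0179), Zfp36 (0.66, adjusted p = 0.0114) and Ier2 (0.99, adjusted p = 0.0198) were higher at day 28, where 16.2% of all genes rose, and all 3 calls were lost without the second capsule day 7 array and 2 of the 3 without either day 28 array. Both comparisons cross slides, and median scaling in place of quantiles called 7 members at day 14 and 6 at day 28, while shifting the median of all genes by 0.34 and 0.29. The Fos change at day 28 against day 7 was -0.01 in quantile-normalised values and 0.98 under median scaling, while its raw intensity was 20485 and 16668 at day 28 against 31363 and 30468 at day 7. Ier2 was highest at day 21, at 10.28 and 10.27, compared with 8.56 and 7.54 at day 14 and 9.05 and 8.55 at day 28; these differences were not tested.

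Every measured member had a capsule group as its highest, day 14 for Fos, Fosb, Jun, Junb, Egr1 and Atf3, and day 21 for Ier3, Zfp36 and Ier2. The lowest group was lavage day 0 for all but Egr1 (lavage day 7) and Ier3 (lavage day 14). From lowest to highest group mean, Fosb spanned 8.13, Ier2 5.28, Egr1 4.33, Fos 4.02, Ier3 4.01, Atf3 3.90, Zfp36 3.36, Jun 3.20 and Junb 2.89 on the log2 scale, against a median of 1.05 over all genes. The Ier2 span runs from an undetected group and depends on the background there. All 8 capsule arrays lay above all 10 lavage arrays for 8 of the 9 members and for 5.42% of all genes. Neighbouring capsule days overlapped for Jun and Ier2 (day 7 and day 14), Junb (day 14 and day 21) and Fos (day 21 and day 28). The share over all genes was not computed for these steps, so they are no result about the members. The steps from day 7 to day 14 and from day 14 to day 21 also cross slides.

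Genes related to the members by role were followed as 6 lists. Of 16 measured further immediate early genes, 12 rose and 1 fell in capsule cells at day 7 against lavage cells (median 1.57, against -0.02 over all genes), with Gadd45b, a stress-response gene, up 3.56, the transcription factor Csrnp1 2.79 and the kinase Plk2 2.46. In lavage cells 13 rose and 1 fell at day 2 against day 0, led by Gadd45b (at least 3.08-fold), Plk2 (1.65) and Egr3 (1.37). At day 4, 11 rose, led by Egr2 (2.40), where 15.4% of all genes rose. Egr2, a close relative of Egr1 singled out after its values were seen, was 2.12 above day 0 at day 7 (adjusted p = 3.16e-05) and 2.01 at day 14 (adjusted p = 7.54e-05). Of 14 AP-1 and bZIP partners, 5 rose and 1 fell in capsule cells at day 7, among them Maff (1.54), Jund (1.13) and Fosl2 (1.06), against 4 risen and 2 fallen in lavage cells at day 2. Over all genes 11.6% rose and 12.5% fell in the capsule comparison, and 13.3% rose and 11.7% fell in the lavage one, so the numbers fallen are near the share over all genes. Of 12 measured upstream SRF, CREB and MAP kinase genes, 2 passed in capsule cells at day 7 and both fell, the p38 kinase gene Mapk14 (-0.90) and the SRF cofactor gene Mrtfa (-0.67). That is near the 12.5% of all genes that fell and is no result about the list. These are transcript levels and say nothing of kinase activity.

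Among 8 measured corepressors and mRNA decay partners, 4 rose in capsule cells at day 7, led by Tnfaip3 (4.25), Nfkbia (2.40) and Socs3 (1.85), which damp NF-kappaB and cytokine signalling. In lavage cells 2 rose at day 2, Nab2 (1.43), a corepressor of EGR proteins, and Socs3 (0.92). Over all genes 11.6% rose in capsule cells at day 7 and 13.3% in lavage cells at day 2. All 11 inflammatory transcripts rose in capsule cells at day 7 (median 4.54), with Cxcl1 up 7.35, Cxcl2 6.94 and Tnf at least 106-fold; Tnf and several of the other mRNAs are targets of Zfp36. In lavage cells 6 rose and 1 fell at day 2 and 7 rose and 1 fell at day 4, led by Il1b (6.48 at day 2 and 5.68 at day 4). Over all genes 13.3% rose and 11.7% fell at day 2, and 15.4% rose and 12.6% fell at day 4. The numbers fallen are thus near the share over all genes. The gene that fell was the neutrophil chemokine Cxcl1, at 9.97 at day 2 and 10.66 at day 4, against 11.43 at day 0 (adjusted p = 4.13e-05 and 0.00588). Heat shock genes, which tissue dissociation is also known to induce, had 5 measured members. Of these, 2 rose in capsule cells at day 7 against lavage day 7, Hspa1a (at least 2.07-fold) and Hsph1 (1.05, SE 0.19). In lavage cells at day 2 against day 0, 0 of the 5 passed in limma, and 1 had an unadjusted p under 0.05 (Hspd1, -0.44, adjusted p = 0.0584). At lavage day 4 against day 0, 1 of the 5 rose, Hspd1 (0.56, adjusted p = 0.0166), and the median was 0.26. That count is near the 15.4% of all genes that rose and is no result about the list. Against lavage day 4, capsule day 7 cells had 2 of the 5 higher, Hspa1a and Hsph1 (0.84), with a list median of 0.02, where 12.8% of all genes rose. Hsph1 averaged 12.10 in capsule cells and 11.05 in lavage cells at day 7, and Hspa1a is nearly identical to Hspa1b, so its probe may read both. Against lavage day 14, capsule day 14 cells had 3 of the 5 higher and 1 lower, with Hsph1 1.39 higher. Over all genes 16.8% rose and 18.4% fell there, so the number lower is near the share over all genes. The part of digestion in the members' rise was not tested.

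**Figure D3:**
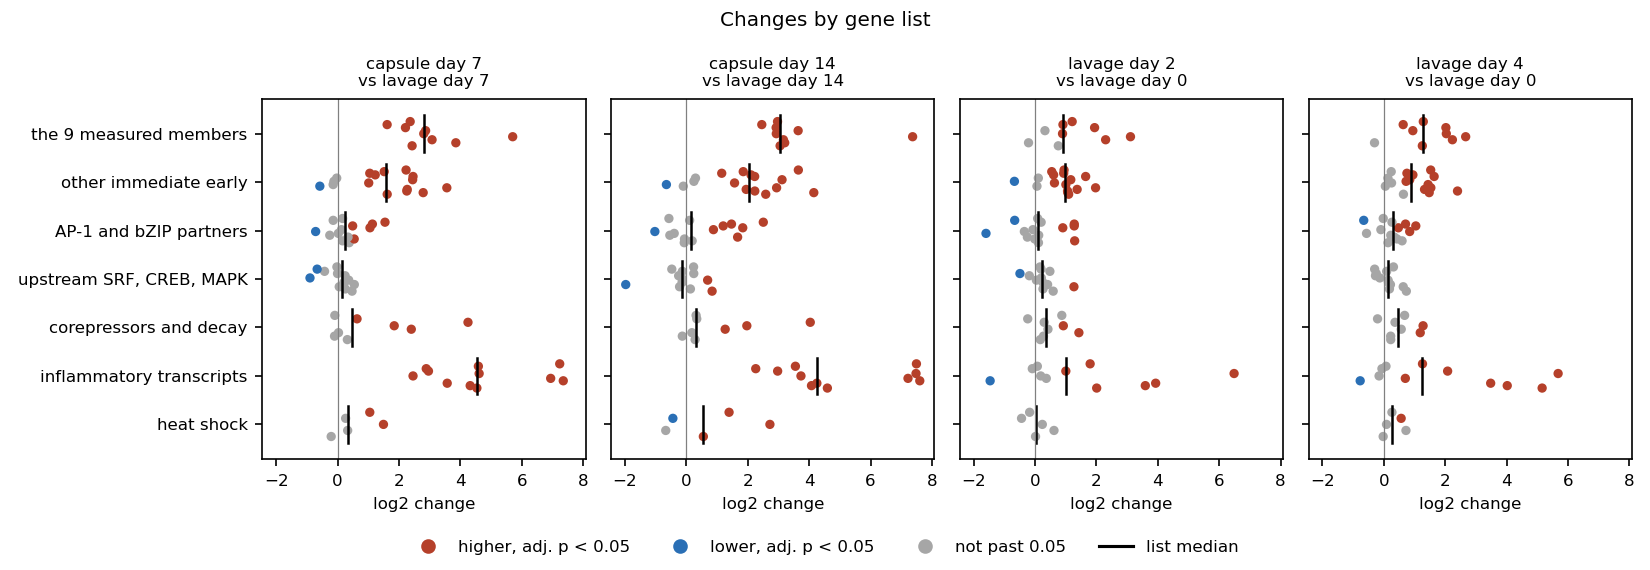
Log2 change (x axis) of each measured gene of the members and 6 related lists (rows) in 4 comparisons, with red points higher and blue points lower at an adjusted p under 0.05, grey points not past it, and a black bar at the list median. In the capsule panel at day 7 the inflammatory transcripts have a median of 4.54 and the 9 members one of 2.81, while in the lavage panel at day 2 the members have one of 0.91.

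Markers of other cells moved with some of these groups. Neutrophil markers, of which 8 of 10 were measured, summed to 82584 and 57389 (linear normalised intensity) in lavage cells at day 2 and 55706 and 70372 at day 4, against 9964 and 10084 at day 0; Mmp8 was detected in none of these 3 groups. S100a8 and S100a9 read 14.88 and 14.46 at day 2 and 14.95 and 14.30 at day 4, against 9.68 and 5.68 at day 0. Cxcr2, Mmp9 and Retnlg were also higher on both days than at day 0. Csf3r and Camp did not follow them: at lavage day 0, 2 and 4 Csf3r averaged 12.86, 12.86 and 12.37, and Camp 6.75, 6.56 and 6.83. In capsule cells at day 7 the neutrophil sum was 10595 and 7961, and in lavage cells at day 7 it was 5949 and 6455. Mmp8 was detected on both capsule day 7 arrays, at a mean of 6.40, and in no other group. Markers of resident peritoneal macrophages (7 of 7 measured, all detected) summed to 15084 and 17177 in capsule cells at day 7, against 52576 and 57136 in lavage cells. In the lavage they summed to 30552 and 40934 at day 2 and 81227 and 64337 at day 4, against 139717 and 121872 at day 0. Against day 0, 7 of 7 fell at day 2 (median -3.14), where 11.7% of all genes fell. At day 4, 4 of 7 fell, where 12.6% of all genes did. Of 4 measured monocyte markers (of 6), 2 rose in lavage cells at day 2 and at day 4, Ly6c1 and Ccr2, where 13.3% and 15.4% of all genes rose. Ly6c1 averaged 5.83, 10.49, 10.29, 7.71 and 6.07 at lavage day 0, 2, 4, 7 and 14, and Ccr2 8.33, 11.49, 10.13, 10.21 and 7.87. In capsule cells at day 7 Ly6c1 was 8.12 and Ccr2 8.65. The other measured monocyte markers were Fn1, at 15.3, 15.2 and 15.4 at lavage day 0, 2 and 4, and Plac8, at 9.92, 11.13 and 10.79. Plac8 was 8.83 in capsule cells at day 7, against 9.65 in lavage cells at day 7. Fibroblast markers (3 of 5 measured) summed to 511 and 313 in capsule cells at day 7 and to 1710 and 1883 at day 14, against 127 and 145 in lavage cells at day 7 and 114 and 132 at day 14, with Dcn at 10.65 in capsule cells at day 14. Pdgfra was undetected in capsule cells at day 7, and Col1a1 and Pdgfra in every lavage group. B cell markers (4 of 6 measured) summed to at most 379 in any capsule group, against 7060 and 6705 at lavage day 0. The sums were 2782 and 2276 at lavage day 7 and 3432 and 1836 at lavage day 14. Ms4a1 did not follow the sum: it averaged 6.09, 6.37 and 6.33 at capsule day 14, 21 and 28. It averaged 6.58 at lavage day 0, 5.91 at lavage day 7 and 6.34 at lavage day 14, and was undetected at capsule day 7. T and NK cell markers had 4 of 6 measured, with sums of 145 to 402 in all groups. The part of these cells in the members' levels was not tested.

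**Figure D4:**
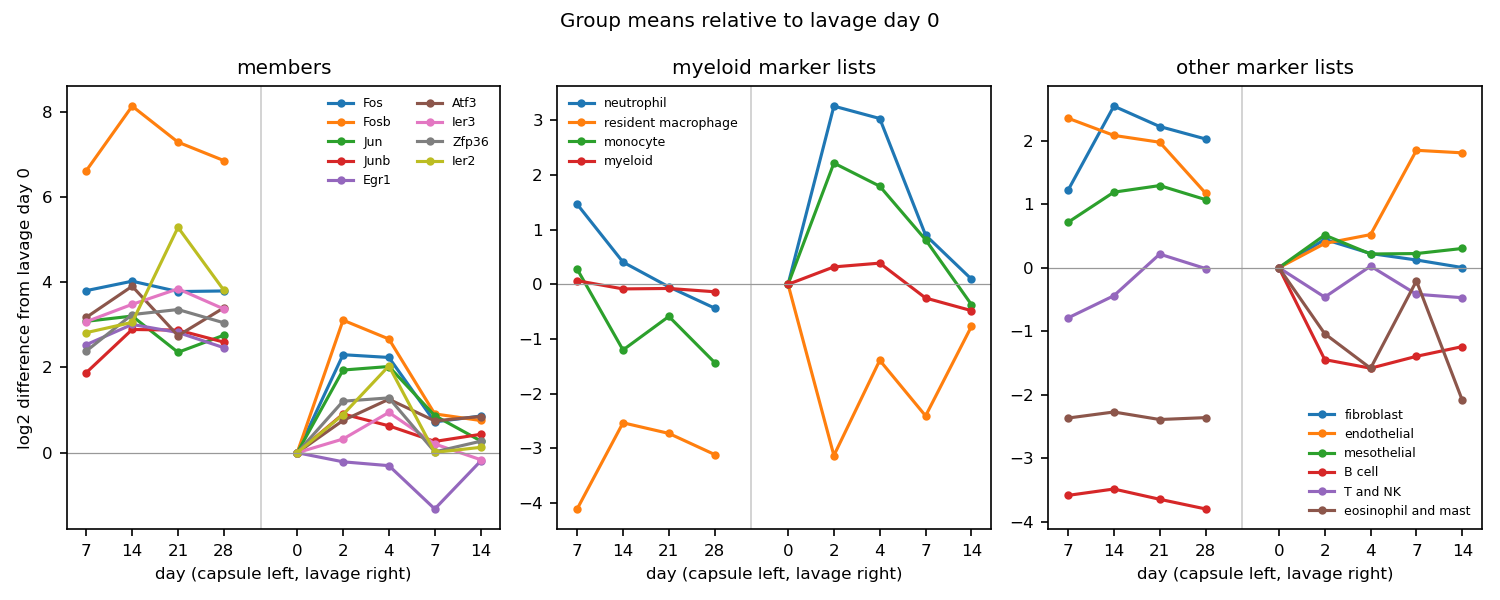
Group mean relative to lavage day 0 (log2, y axis) by day (x axis, capsule left and lavage right) for the 9 members, for 4 myeloid marker lists and for 6 other marker lists. The neutrophil line has its highest points in lavage cells at day 2 and day 4, while each member has its highest in capsule cells.

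Genes whose profile over the 9 group means was closest to each member were found by the root mean square difference of profiles centred on their own means. Junb was closest to Creb5 (0.20), Pvr (0.23) and Socs3 (0.23), and Zfp36 to Pvr (0.21), Nfkbid (0.27) and Tnfrsf12a (0.30). Fos was closest to Gm6377 (0.32), Gadd45b (0.33) and Upp1 (0.41). Egr1 was closest to Ccrl2 (0.39), Ier3 to Ccno (0.34), Atf3 to Plxdc1 (0.31), Jun to Gcnt1 (0.31), Ier2 to Nr4a2 (0.53) and Fosb to Tnf (0.66). Fosb, with the widest swing, had the largest distance, and between members the closest pair was Junb and Zfp36 (0.30).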

How the data were processed

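RNA of sorted EGFP-bright cells was measured on 18 arrays, 9 groups of 2. The deposited non-normalised table holds an intensity and a detection p-value per probe and array, per the file headers, made with BeadStudio. The authors' deposited series matrix holds log2 values; R 2.15.3 appears in the submitters' processing notes with no role. The sources used here do not give how the authors corrected background. For this report the neqc function (limma 3.58.1, R 4.3.3) background-corrected the intensities at an offset of 16 and quantile-normalised them. The filter asked for a detection p below 0.05 on the 2 arrays of some group, which left 20985 of 46632 probes, and each gene was read from its brightest kept probe. Of the probes, 29976 had 1 gene symbol, 10 several and 16646 none. Groups were compared with 1 mean per group (9 residual degrees of freedom, prior 4.58), 2-sided, in 12 comparisons, and p-values were adjusted in each by Benjamini-Hochberg. The members, lists and alternatives were chosen with earlier results of these data known. All members were named in every comparison, with up to 3 largest changes past the threshold per list and the 3 nearest non-member profiles per member. Per the labels, replicate numbers mark a shared slide (1 or 2) in 6 groups and so pair their arrays; deviations of same-numbered arrays correlated at -0.11 to 0.13 over 15 pairs of groups. The number of arrays limits the precision.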

Additional observations from a re-analysis of the deposited data

Results flagged for a closer look

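The capsule minus lavage difference of Ier3 was larger at day 14 than at day 7 by 0.77 (SE 0.22, adjusted p = 0.0377 by limma), and it stands out because the difference between the days itself passed the test. The difference between capsule and lavage was 3.64 at day 14 and 2.87 at day 7. The day 7 to day 14 step passed in the positive direction for 4.66% of all genes. For Ier3 the call was lost when only the arrays compared were fitted. It was also lost when any array but the first replicate of capsule day 7 was left out. The slides differ between the days, and their part was not tested.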

How the results depend on the processing

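Of 1704 recomputed member results, 1605 kept their side of the threshold, 68 lost the call and 30 gained it. A change of sign was counted only where either fit passed, so results that did not pass may have changed direction. By that rule 1 reversed: Fos between capsule day 28 and day 7 was 0.98 under median scaling (adjusted p = 0.00179). The 9 calls of capsule against lavage at day 7, at day 14 and against lavage day 2 held in every alternative. Under median scaling the members called were 7 for capsule day 14 against day 7, 6 for day 28 against day 7, 7 for the capsule minus lavage difference between days and 1 for lavage day 14 against day 0. Without background correction 5 and 3 were called for capsule day 14 against day 7 and for the difference between days, and with the compared arrays alone 0 for the difference between days. The lavage day 14 count against day 0 was 1 with the authors' log2 values, no detection filter, all probes, the slide as a random block (correlation -0.0631) and the 12 arrays with or without the replicate block; lavage day 7 had 2 calls on those 12 arrays without the replicate block and 0 with it, Ier2 gained its call for capsule day 7 against lavage day 4 in both fits, and the block changed no other member call. Leaving out 1 array gave 2 to 2 members for capsule day 14 against day 7, 0 to 3 for day 28 against day 7, 9 to 9 for both same-day comparisons with lavage and for lavage day 2, 7 to 8 for capsule day 7 against lavage day 4, 0 to 2 for the difference between days, 5 to 6 for lavage day 14 against day 4, 5 to 6 for day 2, 6 to 7 for day 4, 0 to 2 for day 7 and 0 to 2 for day 14 against day 0. The share of called genes that were higher, under median scaling against quantiles, was 82.7% against 47.7% for capsule against lavage at day 14, 81.3% against 49.5% for capsule day 14 against day 7, 78.8% against 52.0% for day 28, 90.0% against 40.6% for the difference between days, 36.1% against 52.1% for lavage day 14 and 65.6% against 54.9% for lavage day 4 against day 0, 20.0% against 46.3% for lavage day 14 against day 4, and 34.5% against 46.1% and 36.3% against 47.1% for capsule day 7 against lavage day 4 and day 2. Median scaling moved the median of all genes to 0.39 for capsule against lavage at day 14, 0.53 for the difference between days and -0.18 for lavage day 14 against day 4. Over all genes it called 4612, against 2584 under quantiles, for capsule day 14 against day 7 and 3724, against 1240, for the difference between days, where the compared arrays alone called 1629 and 790; with every kept probe tested, 4688 were called, against 2703 genes, for lavage day 2 against day 0. The cause was not tested. Low signal limits Ier2, Fosb in lavage and Nr4a1.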
